A study of Mus musculus with 6 samples.

Results

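The coronins are the family described here, and Coro2a, which was chosen because its transcript rose in these data, is their leading member. The family was taken by name: the 7 rows of the deposited count table whose symbol was Coro1a, Coro1b, Coro1c, Coro2a, Coro2b, Coro6 or Coro7, among 23608 rows in all. Of these 7 genes, 5 passed the filter on low counts, which left 11614 genes, and Coro2b and Coro6 did not. The RNA came from mouse acute myeloid leukaemia cells driven by AE9a, a truncated AML1-ETO fusion protein carried by a retrovirus with GFP. Cells of both groups had 1 floxed and 1 intact copy of Usp18 (Usp18+/f), the AE9a retrovirus and UBCER-Cre, a Cre recombinase under the ubiquitin C promoter that needs tamoxifen to act and is not limited to 1 cell type. Sick recipient mice were injected with oil (3 libraries, Usp18+/f) or with tamoxifen (3 libraries, Usp18+/Δ, in which the floxed copy is meant to be lost), and Lin- c-Kit+ GFP+ splenocytes were sorted 3 days after the first injection. Tamoxifen itself was given to 1 group only, so its own effect and that of the allele cannot be told apart.

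Coronins are actin-binding proteins built around a beta-propeller of WD40 repeats. They bind filamentous actin, restrain or recruit the branching Arp2/3 complex and guide cofilin to older filaments, and so take part in the turnover of the cell cortex, in migration and in phagocytosis. Coro1a is the coronin of leukocytes, Coro1b and Coro1c are found in most cells, Coro2b and Coro6 are best known from neural tissue and muscle, and Coro7 is a longer protein with a tandem propeller that sits at the Golgi. Coro2a has a second known role as a component of the NCoR corepressor complex.

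Each library held between 17118964 and 20741399 counts, so that 3 counts corresponded to between 0.145 and 0.177 CPM. CPM here are counts scaled to library size by TMM. Values given for single libraries stand in the order of the column numbers, which are oil 1, 3 and 4 and tamoxifen 1, 2 and 4. Usp18, the targeted gene, went against its label: it had oil levels of 9.12, 10.95 and 11.2 CPM and tamoxifen levels of 15.1, 28.0 and 19.4 CPM, a log2 difference of 0.998 (SE 0.23, edgeR adjusted p = 0.0739). A table of gene totals cannot show whether the floxed exons are missing from these reads, and groups are therefore named by the labels. Among the replicates, the library labelled tamoxifen 4 stood apart. On the first principal component, which held 65.1% of the variance, the oil libraries lay between -31.1 and -23.4, tamoxifen 1 and 2 at 37.3 and 47.5, and tamoxifen 4 at -2.99. In the sorted population, T and NK cell markers summed to at most 0.103 CPM in any library, with Cd3e, Cd8a, Gzma, Prf1, Klrd1 and Ncr1 at 0 counts in all 6.

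Coro2a was a minor transcript in the libraries labelled oil and stood much higher in those labelled tamoxifen. Its levels were 13.4, 11.2 and 10.3 CPM in the oil libraries and, in the tamoxifen libraries, 139, 176 and 80.3 CPM. These values rest on 238, 231.5 and 200 counts in the oil libraries and on 2533, 2988.5 and 1454 counts in the tamoxifen libraries. The groups lay far apart: the lowest tamoxifen library was well above the highest oil library, and tamoxifen 4 was the lowest of its group. The means were 11.6 ± 1.59 CPM (SD, n = 3) and 132 ± 48.4 CPM (SD, n = 3), which is an 11.3-fold difference and a log2 difference of 3.50 (SE 0.28). This difference chose the gene and is given without a test. By its size it ranked 38 among all genes tested, and of the 8780 genes with an oil mean of at least 10 CPM, 2 had a larger log2 difference, Cyp11a1 (4.37) and Dtx4 (4.21). When each library was left out in turn, the log2 difference of Coro2a ran from 3.24 without tamoxifen 2 to 3.76 without tamoxifen 4.

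**Figure D1:**
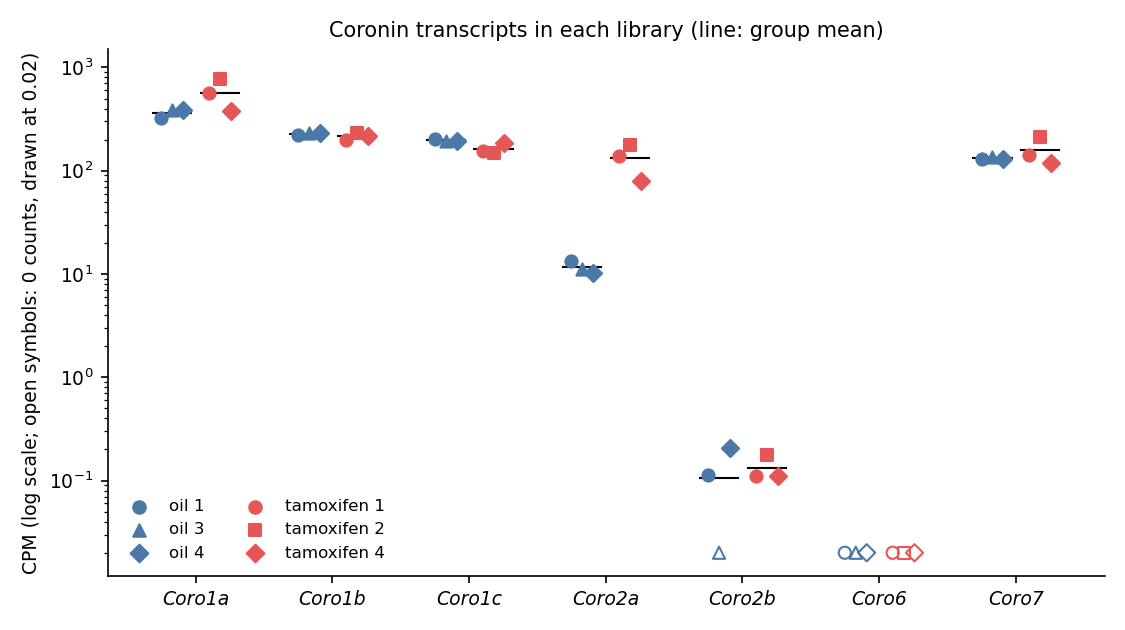
CPM (y axis, log scale) of the 7 coronins (x axis) in each of the 6 libraries; symbols are libraries, blue for oil and red for tamoxifen, horizontal lines are group means and open symbols mark libraries with 0 counts. Coro2a lies between 10.3 and 13.4 CPM in oil and between 80.3 and 176 CPM in tamoxifen, whereas Coro1b stays between 197 and 234 CPM in all 6 libraries.

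Coro2a lies on chromosome 4 (46536937-46602202, minus strand; GRCm38, GENCODE M21) and has 2 starts in the RefSeq promoter table (GRCm38.p6), a distal one and one inside the gene. The counts are per gene and cannot show which of them was used. The 250 bases before the distal start are rich in CpG, with 33 CpG and 73.6% GC, against 3 CpG and 49.2% GC before the internal start and a median of 6 CpG over all starts in the table. The internal window is shown because it alone among the coronin windows matched the letters of an interferon-stimulated response element. Interferon-activated transcription factors read this site. The distal window of Coro2a held none of the letters searched, and the part of the match in the level of Coro2a was not tested. Coro1a, the most abundant coronin, also has 2 starts in the table, and the counts cannot show which was used. The window before its more upstream start, labelled main start below, is shown beside the internal window and also held none of the letters searched. Both are written from 5′ to 3′ on the minus strand and end at the base before the start, and the capitals mark the match.
Coro2a, internal start, chr4:46566441-46566690: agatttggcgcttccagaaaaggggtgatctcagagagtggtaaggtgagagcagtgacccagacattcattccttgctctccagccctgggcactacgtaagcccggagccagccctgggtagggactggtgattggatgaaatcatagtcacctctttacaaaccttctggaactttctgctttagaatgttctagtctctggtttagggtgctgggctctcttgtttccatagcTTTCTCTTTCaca
Coro1a, main start, chr7:126704817-126705066: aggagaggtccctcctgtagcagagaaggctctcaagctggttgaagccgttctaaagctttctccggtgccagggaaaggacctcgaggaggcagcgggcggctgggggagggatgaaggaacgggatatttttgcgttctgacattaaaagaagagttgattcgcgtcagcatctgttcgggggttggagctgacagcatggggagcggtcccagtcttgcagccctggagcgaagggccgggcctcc

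In the Coro2a window the capitals TTTCTCTTTC match, on the opposite strand, the letters GAAA, any 2 bases and GAAA again. They cover chromosome 4 from 46566444 to 46566453, starting 13 bases before the RefSeq start; in GENCODE this stretch already belongs to the first exon of a shorter Coro2a transcript. Windows of 250 bases before and 50 bases after each start were searched on both strands in all 32851 entries of the table, which covered 6 of the 7 members and not Coro1b. These letters occurred in 3.44% of all windows. The letters TGTGGT, bound by RUNX1, the factor from which AML1-ETO takes its DNA-binding domain, occurred in 16.8% of all windows and among the coronins in those of Coro1c, Coro2b, Coro7 and, 45 bases after the start, the internal window of Coro2a. The letters AGGAAGT of ETS factors (9.35% of all windows) were found for Coro2b and Coro6, and the E-box CACGTG (7.15%) for Coro6. TTCNNNGAA, the element of STAT factors (8.30%), and GGGA, any base and TTTCC, that of NF-kB (0.411%), were not found in a coronin window. A match of letters is a description of the sequence and no measurement of binding.

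The 4 other coronins tested were all well expressed in the leukaemia cells and differed between the groups by far less than Coro2a. Over all genes tested, 2.01% passed an adjusted p of 0.05 in either direction (1.75% higher and 0.267% lower in tamoxifen). None of these 4 genes did so by edgeR, DESeq2 or limma-voom, and 2 of them, Coro1a and Coro1c, had an unadjusted edgeR p under 0.05, as did 20.6% of all genes tested. The family was picked with these results known, and nothing is read from its count of calls.

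Coro1a, which organises the actin cortex of leukocytes and is linked to calcineurin signalling, was the most abundant coronin. It had oil levels of 326, 387 and 383 CPM and tamoxifen levels of 566, 771 and 378 CPM. Tamoxifen 1 and 2 were above every oil library, but tamoxifen 4 lay within the oil range, so the groups overlapped. The means were 365 ± 34.3 and 571 ± 197 CPM (SD, n = 3 each), a log2 difference of 0.65 (SE 0.23, edgeR adjusted p = 0.188) that did not pass the test. Without tamoxifen 4 it was 0.87 (adjusted p = 0.000652), and with any other library left out it was not called (adjusted p up to 0.471). Coro1a lies on chromosome 7 (126699773-126707787, minus strand) and shares 26 exonic bases with Bola2 on the other strand.

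Coro1b and Coro1c, the broadly expressed coronins that act at the leading edge of moving cells, were not higher in tamoxifen on average. Coro1b (chromosome 19, 4148619-4154035, plus strand) had oil levels of 222, 231 and 230 CPM and tamoxifen levels of 197, 234 and 216 CPM, with overlapping groups and a log2 difference of -0.08 (SE 0.09, edgeR adjusted p = 0.629). Coro1c (chromosome 5, 113842436-113908758, minus strand) had oil levels of 203, 195 and 192 CPM and tamoxifen levels of 156, 150 and 187 CPM. All 3 tamoxifen libraries were below all 3 oil libraries for Coro1c, as was so for 11.8% of all genes tested, and tamoxifen 4 again lay closest to oil. Its means were 197 ± 5.36 and 164 ± 19.7 CPM (SD, n = 3 each), a log2 difference of -0.26 (SE 0.10, adjusted p = 0.214), which became -0.36 (adjusted p = 0.00341) without tamoxifen 4.

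Coro1b shares 432 exonic bases, 13.5% of its exons, with Ptprcap on the same strand, a gene for a protein that associates with the phosphatase CD45. Reads from these bases can belong to either gene, so the level of Coro1b is uncertain to that extent. Ptprcap had oil levels of 67.2, 75.1 and 88.2 CPM and tamoxifen levels of 117, 203 and 111 CPM (log2 difference 0.90, edgeR adjusted p = 0.0914). Coro1c shares 372 bases with Gm17122 on the other strand, which was not analysed here.

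Coro7, the Golgi coronin (chromosome 16, 4626133-4679777, minus strand), had oil levels of 129, 137 and 129 CPM and tamoxifen levels of 142, 211 and 119 CPM. Its mean rested on tamoxifen 2, while tamoxifen 4 was below all 3 oil libraries. The log2 difference was 0.26 (SE 0.19, edgeR adjusted p = 0.446). It was 0.42 (adjusted p = 0.0335) without tamoxifen 4 and -0.011 (adjusted p = 0.973) without tamoxifen 2, so that the direction for Coro7 was set by a single library. Coro7 shares 153 exonic bases with Dnaja3 on the other strand.

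Coro2b and Coro6 were at or near the limit of detection. Coro2b (chromosome 9, 62419492-62537044, minus strand) was covered by 2, 0 and 4.5 counts in the oil libraries and by 2, 3 and 1.5 counts in the tamoxifen libraries. Coro6 (chromosome 11, 77462411-77470484, plus strand) had 0 counts in all 6 libraries, which allows up to 0.177 CPM in the shallowest of them. These limits cover counting error only. No difference in either gene could be detected at this depth.

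**Figure D2:**
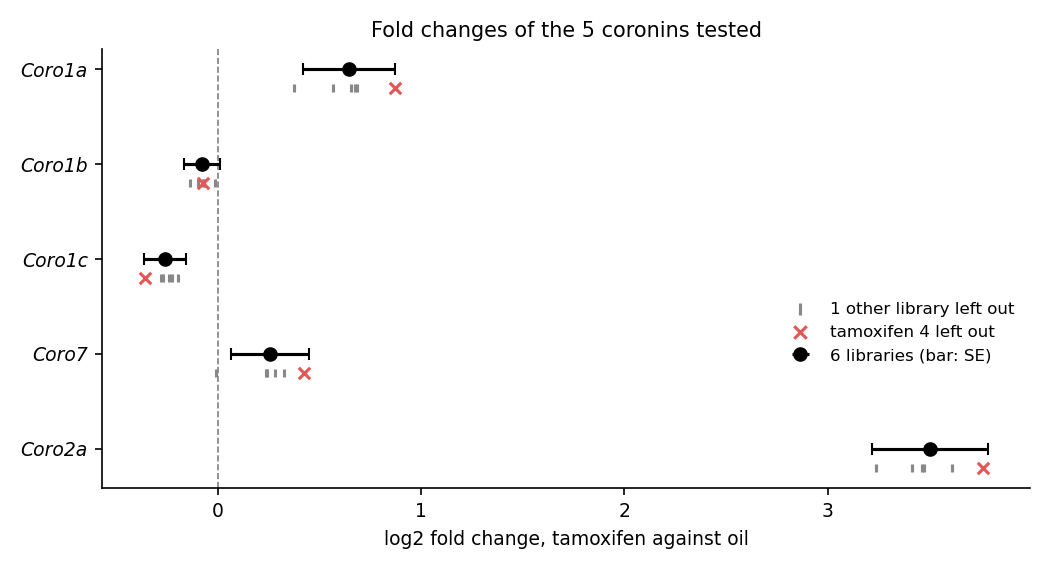
Log2 fold change, tamoxifen against oil (x axis), of the 5 coronins tested (y axis); black points with bars are the values over 6 libraries with SE, and the marks under them are the values with 1 library left out, red crosses for tamoxifen 4. Coro2a stays between 3.24 and 3.76, and Coro1a, Coro1c and Coro7 lie farthest from 0 when tamoxifen 4 is left out.

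The position of tamoxifen 4 differed between the members. On the log2 scale, tamoxifen 4 had gone 74.3% of the way from the oil mean to the mean of tamoxifen 1 and 2 for Coro2a, 20.8% for Coro1c and 6.17% for Coro1a, and for Coro7 it lay on the other side of the oil mean (-37.4%). For Coro1b, whose whole difference was small, the share has no use. Over the 203 genes called higher in tamoxifen, the median was 67.1% (quartiles 51.0% and 83.3%), and 81 of them lay farther along than Coro2a. Coro2a was thus raised in the library in which Coro1a was at its oil level. These shares are descriptions, since Coro2a and the 203 genes were chosen by the same libraries.

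To set the members beside each other, CPM was divided by the length of the longest protein-coding transcript in kb. On this per-length scale the order in oil was Coro1a, Coro1b, Coro1c, Coro7, Coro2a, Coro2b and Coro6, with ranges over libraries that overlapped only between the last pair. Coro1a stood at 209 ± 19.6, Coro1b at 121 ± 2.65, Coro1c at 56.3 ± 1.53, Coro7 at 30.6 ± 0.998 and Coro2a at 2.80 ± 0.383 CPM per kb (SD, n = 3 each). In tamoxifen Coro2a reached 33.5, 42.5 and 19.3 CPM per kb in libraries 1, 2 and 4. Its range then overlapped with that of Coro7 (27.6 to 49.2 CPM per kb), which in turn overlapped with Coro1c (42.9 to 53.4 CPM per kb), while Coro1a and Coro1b stayed above them.

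Of the summed per-length level of the family, Coro2a made up 0.816%, 0.624% and 0.577% in the oil libraries and 6.20%, 6.07% and 4.49% in the tamoxifen libraries. The ratio of Coro1a to Coro2a lay between 57.8 and 88.5 in the oil libraries and between 9.68 and 11.2 in the tamoxifen libraries. The share of Coro1a was 49.8% ± 2.25 in oil and 57.7% ± 6.72 in tamoxifen (SD, n = 3 each). Coro1a therefore remained the main coronin in every library, and the family as a whole stood at 419 ± 21.1 CPM per kb in oil and 557 ± 135 CPM per kb in tamoxifen. Divided by coding length instead, the mean of Coro2a in tamoxifen was above that of Coro7 (81.0 against 56.9 CPM per kb), and its share was 1.17% in oil and 9.72% in tamoxifen.

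**Figure D3:**
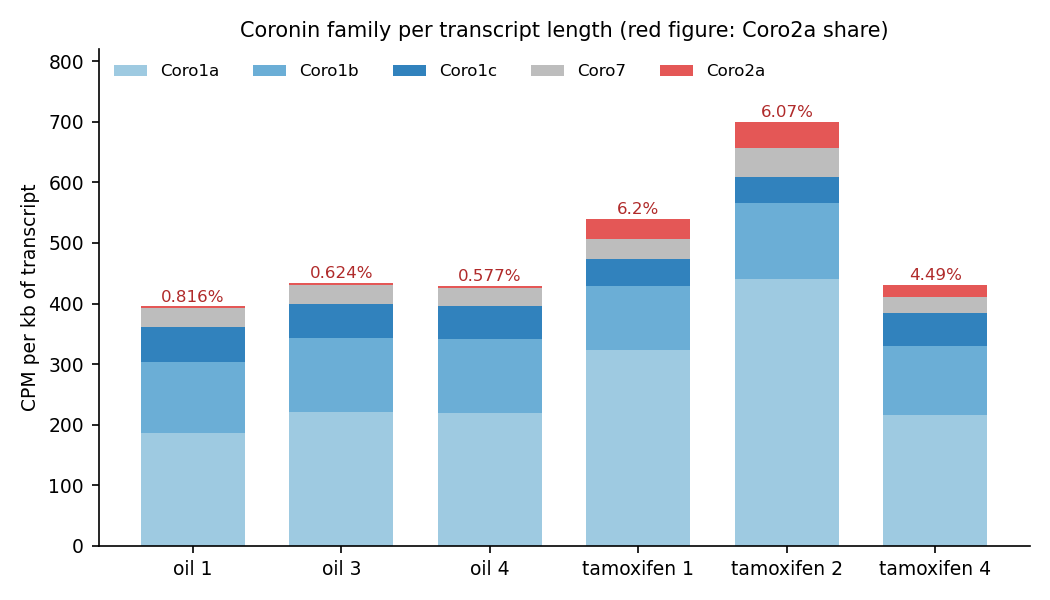
Level of the coronins per transcript length (y axis, CPM per kb, from 0) stacked by member in each of the 6 libraries (x axis); the percentage over each bar is the share of Coro2a. The red segment of Coro2a is 0.577% to 0.816% of the bar in oil and 4.49% to 6.20% in tamoxifen, and Coro1a is the largest segment in all 6 bars.

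Genes beside Coro2a were examined next. Its nearest tested neighbours on both sides lie on the same strand, Tbc1d2 upstream, 2188 bases away, and Trim14 downstream, 796 bases away. Trim14, an adaptor in antiviral signalling (chromosome 4, 46493781-46536141), had oil levels of 30.1, 28.6 and 25.8 CPM and tamoxifen levels of 74.6, 83.5 and 44.7 CPM. The groups did not overlap, as for 13.3% of all genes in this direction, and tamoxifen 4 was the lowest of its group, as for Coro2a. The log2 difference of Trim14 was 1.26 (SE 0.21, edgeR adjusted p = 0.0398). Tbc1d2, a Rab GTPase-activating protein (chromosome 4, 46604390-46650209), had oil levels of 1.80, 2.71 and 1.23 CPM and tamoxifen levels of 5.82, 8.97 and 6.19 CPM, without overlap (log2 difference 1.86, SE 0.33, adjusted p = 0.0402).

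Both calls were close to the threshold. Each held under 8 of 14 alternatives and was lost under limma-voom and when any library other than tamoxifen 4 was left out, with adjusted p up to 0.202 for Trim14 and 0.209 for Tbc1d2. Without tamoxifen 4 the adjusted p was 1.28e-05 for Trim14 and 0.00194 for Tbc1d2.

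Gm16731, a non-coding transcript on the opposite strand, shares 329 exonic bases with Coro2a. It had oil levels of 4.05, 3.05 and 2.57 CPM and tamoxifen levels of 16.4, 18.8 and 8.07 CPM, a log2 difference of 2.16 (SE 0.34, edgeR adjusted p = 0.0331, up to 0.178 when 1 library was left out). The strand setting of the counts is not given in the sources used here, so reads of Gm16731 and of Coro2a cannot be told apart in the shared bases.

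Within 500 kb of Coro2a, a distance chosen after the values were seen, 12 other genes were tested, of which these 3 were called higher and 0 lower, beside 1.75% and 0.267% of all genes tested. The distance was set around a gene chosen for its rise, and Gm16731 shares bases with it, so nothing is read from this count. The median log2 difference of the 12 genes was 0.09, against 0.00 over all genes tested. Beyond the immediate neighbours, Gabbr2 on the upstream side had a log2 difference of 0.73 with overlapping groups (adjusted p = 0.453), and Hemgn, a haematopoietic nuclear protein on the downstream side, had one of -0.85 (SE 0.17, adjusted p = 0.0506). Around the other coronins, 0 of 40 genes were called near Coro1a, 0 of 30 near Coro1b, 0 of 12 near Coro1c, 0 of 8 near Coro2b and 0 of 18 near Coro7 by edgeR, and 1 of 11 was called higher near Coro6, beside 2.01% of all genes called in either direction.

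**Figure D4:**
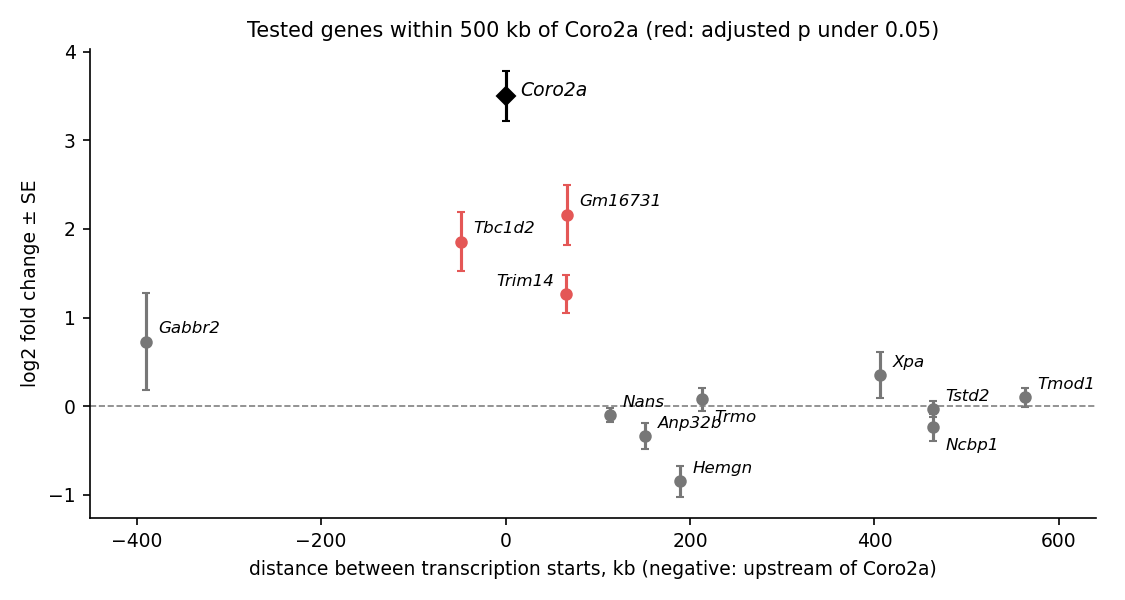
Log2 fold change with SE (y axis) of the 12 tested genes within 500 kb of Coro2a against the distance between their starts and that of Coro2a in kb (x axis, negative upstream); red marks an adjusted p under 0.05, and Coro2a is the black diamond. The 3 genes next to Coro2a have values of 1.26 to 2.16, and Hemgn is the lowest at -0.85.

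Over the 6 libraries, the genes whose log2 CPM followed Coro2a most closely were Cx3cr1, the fractalkine receptor (Pearson r = 0.998), Gm14005 (0.997), Celsr1, an atypical cadherin (0.997), Akr1c13, an aldo-keto reductase (0.996), and 4930429B21Rik (0.996). Cx3cr1 had oil levels of 1.01, 0.969 and 0.978 CPM and tamoxifen levels of 7.90, 8.97 and 4.75 CPM. Celsr1 had oil levels of 14.4, 12.8 and 11.5 CPM and tamoxifen levels of 46.4, 54.6 and 40.5 CPM. In all, 237 genes had r over 0.95 with Coro2a. The 6 points share 2 groups, so any gene that differs between the groups correlates with Coro2a, and the values only describe likeness.

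Coro1a followed other genes. Those most like it were Ap3s1, a subunit of the AP-3 adaptor (r = 0.9999), Slc35c2, Amdhd2, Flcn, which encodes folliculin, and Sap25 (each r = 0.996 to 0.997). Ap3s1 had oil levels of 52.2, 56.3 and 56.2 CPM and tamoxifen levels of 66.8, 76.8 and 55.6 CPM, and again tamoxifen 4 lay within the oil range. Among the members themselves, r with Coro2a was 0.80 for Coro1a, 0.55 for Coro7, -0.43 for Coro1b and -0.89 for Coro1c, and r between Coro1a and Coro1c was -0.97.

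The actin machinery with which coronins work had a median log2 difference near that of all genes, 0.00. Of 92 genes in 10 lists of actin regulators and coronin partners, 82 were tested, 3 were called higher and 0 lower, against 1.75% and 0.267% of all genes. Their median log2 difference was 0.03, and 22 of the 82 had an unadjusted edgeR p under 0.05. Over all genes tested 20.6%, or 2391 of 11614, were under that limit, which is the background for the unadjusted counts of the single lists below. Each of the 3 genes called was in a different list, and no count of calls in a single list exceeded 1.

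**Figure D5:**
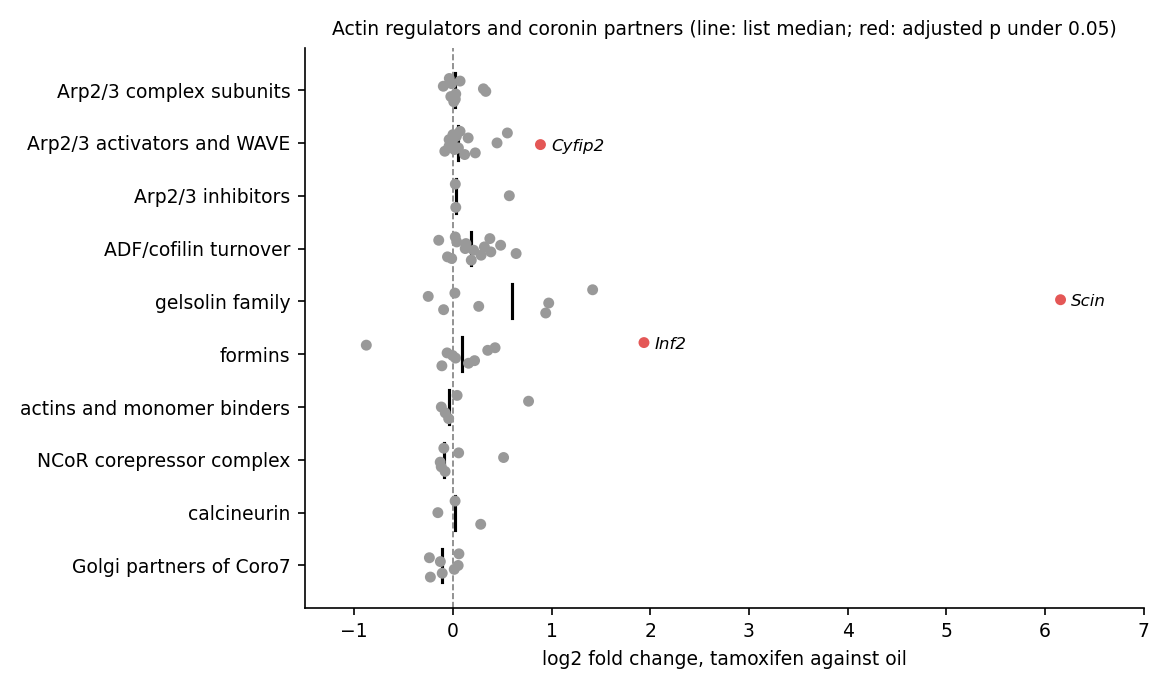
Log2 fold change, tamoxifen against oil (x axis), of the 82 tested genes in 10 lists (y axis); grey points had an adjusted p of 0.05 or more, red points less, and black lines are list medians. The medians run from -0.11 to 0.60, and Cyfip2, Inf2 and Scin are the 3 red points; the value of Scin is a fitted one for a gene with at most 3 counts in each oil library.

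Among the genes that build branched actin, the 10 subunits of the Arp2/3 complex had a median of 0.02 with 0 called and 2 at an unadjusted p under 0.05. These were Arpc1b, at 203 ± 6.14 CPM in oil and 256 ± 46.4 CPM in tamoxifen, and Arpc2, at 451 ± 14.1 and 559 ± 74.9 CPM (SD, n = 3 each, edgeR adjusted p = 0.215 and 0.191). Arpc5, the most abundant subunit with Arpc2, had a log2 difference of 0.07. Of 15 tested activators and WAVE complex members, Cyfip2, a WAVE subunit, was called higher. It had oil levels of 79.5, 95.4 and 91.1 CPM and tamoxifen levels of 173, 194 and 125 CPM (log2 difference 0.89, SE 0.16, adjusted p = 0.0411). Wipf1, the partner of WASP, reached 0.55 (adjusted p = 0.0624), Hcls1, a haematopoietic cortactin relative, 0.45 (adjusted p = 0.205) and Nckap1l, the haematopoietic WAVE scaffold, -0.04. The 3 inhibitors and debranching factors tested, Gmfg, Gmfb and Pick1, had log2 differences of 0.57, 0.03 and 0.02 with 0 called and 0 at an unadjusted p under 0.05.

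Filament turnover was examined in the same way. Of 15 tested genes of the ADF/cofilin group, the median was 0.19, with 0 called and 5 at an unadjusted p under 0.05. Cfl1, the main cofilin, was at 812 ± 24.5 CPM in oil and 805 ± 8.51 CPM in tamoxifen (SD, n = 3 each), and Cap1 had a log2 difference of 0.19 (edgeR adjusted p = 0.320). Ssh3, a cofilin phosphatase, had one of 0.48 (adjusted p = 0.203), and Limk1, a cofilin kinase with at most 5.14 CPM in any library, one of 0.64 (adjusted p = 0.532). The actins and monomer-binding proteins (5 tested, 0 called, 1 at an unadjusted p under 0.05) had a median of -0.04, with Actb at 3390 ± 29.5 CPM in oil and 3291 ± 73.7 CPM in tamoxifen, Pfn1 at a log2 difference of -0.12 and Tmsb10 at 0.77 (adjusted p = 0.234).

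The highest list median, 0.60 over 8 genes, was that of the gelsolin family, whose members sever and cap filaments, with 1 gene called and 5 at an unadjusted p under 0.05. The gene called was Scin, which encodes scinderin. Its levels were 0.0563, 0.0485 and 0.154 CPM in oil, which is at most 3 counts in each library, and 2.85, 15.7 and 1.44 CPM in tamoxifen (edgeR adjusted p = 0.0449; called in 7 of 14 alternatives), and no fold is given. Gsn, gelsolin itself, had oil levels of 254, 309 and 259 CPM and tamoxifen levels of 496, 821 and 294 CPM, with tamoxifen 4 inside the oil range (log2 difference 0.97, SE 0.32, adjusted p = 0.158). Flii had a log2 difference of 0.26 and Vill one of 1.42, neither called.

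Among 10 tested formins, which build unbranched filaments, Inf2 was called higher and the median was 0.09. Inf2 had oil levels of 6.08, 6.59 and 7.92 CPM and tamoxifen levels of 24.9, 34.4 and 19.7 CPM, without overlap (log2 difference 1.94, SE 0.23, edgeR adjusted p = 0.0181). It was called in 10 of 14 alternatives. Fmnl1 (0.43, adjusted p = 0.138), Diaph1 (0.22, adjusted p = 0.312) and Fmnl3 (-0.88, adjusted p = 0.365) were not called. The calls of all 3 genes depended on single libraries: Cyfip2 and Scin were called in no fit that left out a library other than tamoxifen 4, and Inf2 in 1, that without tamoxifen 2, with adjusted p up to 0.145 in the others.

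The named partners of single coronins were examined last. Of 6 genes of the NCoR complex, in which the Coro2a protein is found, 0 were called, 1 had an unadjusted edgeR p under 0.05 and the median was -0.09. Ncor1 was at 398 ± 21.2 CPM in oil and 364 ± 11.8 CPM in tamoxifen (SD, n = 3 each, adjusted p = 0.390), and Tbl1xr1 had a log2 difference of -0.09. Of 3 tested calcineurin genes, linked to Coro1a, 0 were called and 1 had an unadjusted p under 0.05: Ppp3ca had a log2 difference of 0.28 (adjusted p = 0.190), Ppp3cb -0.15 and Ppp3r1 0.02. Of 7 genes for Golgi partners of Coro7, 0 were called and 2 had an unadjusted p under 0.05, and the median was -0.11. Those 2 genes, Eps15 (-0.24, adjusted p = 0.171) and Ap1b1 (-0.23, adjusted p = 0.194), were lower in all 3 tamoxifen libraries than in all 3 oil libraries. The same was so for Ncor1 and for 11.8% of all genes tested. Ap1m1 had a log2 difference of 0.01.

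Tamoxifen 4 bore on the whole set. Without it, 25 genes of these lists were called higher and 4 lower (Svil, Ppp3cb, Ap1b1 and Eps15). Over all genes, the calls went from 203 to 2278 higher and from 31 to 2024 lower. The main fit tested 11614 genes and the fit without tamoxifen 4 tested 11851. Nothing is read from the counts of calls in these lists. Arpc2 (0.41, edgeR adjusted p = 0.00214) and Gsn (1.27, adjusted p = 0.000542) were among the genes then called higher.

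Levels of some markers of other cell states differed between the groups beside Coro2a. Cd34, a progenitor surface marker, was called higher (log2 difference 3.27, edgeR adjusted p = 0.0232) and had oil levels of 9.68, 8.43 and 11.7 CPM and tamoxifen levels of 113, 134 and 41.8 CPM. Kit, on which the cells were sorted, stood at 439 to 451 CPM in oil and at 651, 781 and 447 CPM in tamoxifen, with tamoxifen 4 inside the oil range (adjusted p = 0.202), and Runx1t1 was not called either (adjusted p = 0.312). Together these 3 genes, of which only Kit was part of the sort, summed to between 554 and 586 CPM in oil and between 609 and 1047 CPM in tamoxifen. The 9 mast cell markers summed to between 2663 and 2885 CPM in oil and between 3329 and 7276 CPM in tamoxifen, with none at 0, but the genes differed. Among the tamoxifen libraries, each of these genes was highest in tamoxifen 2. Cpa3 was at 354, 1064 and 294 CPM in tamoxifen 1, 2 and 4, and Cma1 at 876, 2170 and 557 CPM. Fits with a library left out are not given for the markers. Fcer1a (log2 difference 2.12, edgeR adjusted p = 0.0381) and Tpsb2 (adjusted p = 0.0402) were called higher. Tpsb2 was near the level of 3 counts in oil, at 0.113, 0.291 and 0.309 CPM, and no fold is given. Its tamoxifen levels were 1.98, 8.92 and 2.43 CPM. Cma1 (2.16, adjusted p = 0.0551), Cpa3 (2.11, adjusted p = 0.0640), Mcpt4, Hdc, Mcpt2, Mcpt1 (0.07) and Ms4a2 (-0.04) were not called. Among the 6 megakaryocyte markers the sums were 55.8 to 57.8 CPM and 64.6 to 106 CPM, and Itga2b was called higher (adjusted p = 0.0435), at 4.75 to 5.71 CPM in oil and 24.8, 51.0 and 11.7 CPM in tamoxifen.

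Summed erythroid markers overlapped between the groups (3829 to 6102 and 3065 to 7462 CPM), as did 9 macrophage markers (4.56 to 8.61 and 7.07 to 15.0 CPM) and 8 neutrophil markers (0.394 to 1.03 and 0.220 to 0.886 CPM, with S100a8, Ly6g and Mmp9 at 0). The 6 B cell markers summed to between 0.0514 and 0.281 CPM in oil and between 0.387 and 0.933 CPM in tamoxifen, with Ms4a1 and Pax5 at 0. The part of these markers in the values of Coro2a and Coro1a was not tested. In bulk RNA, more cells of a kind that carries Coro2a and more Coro2a RNA in each cell cannot be told apart.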

How the data were processed

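RNA-seq was analysed for 6 libraries of sorted leukaemia cells, 3 labelled oil and 3 labelled tamoxifen. The deposited values are the authors' estimated counts for each gene symbol, unscaled between libraries, of which 25.9% to 27.3% per library were not whole numbers. The submitters' processing notes name STAR, DESeq2 and mm10; the counting program, its strand setting and the annotation are not given in the sources used here. Columns are numbered oil 1, 3 and 4 and tamoxifen 1, 2 and 4, which differs from the sample titles, so oil 3 and tamoxifen 2 were used by group only. The labels do not tie libraries to recipients, while the study's methods give 3 mice for each group. No pair of libraries within a group was a repeat (chi-square per degree of freedom at least 7.30), and pairs across the groups were not compared.

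Counts were rounded and tested in R 4.3.3 with edgeR 4.0.16 (filterByExpr, TMM, quasi-likelihood F test, Benjamini-Hochberg over 11614 genes, threshold 0.05). Alternatives were DESeq2 1.42.0, limma-voom (limma 3.58.1), other scalings, filters, unrounded counts, a replicate block and each library left out. Scripts were tested on simulated data. Log2 CPM for correlations and principal components used a prior count of 2. CPM per kb used the longest protein-coding transcript of GENCODE M21, since the RefSeq table gave genomic spans. Promoter windows are from RefSeq. Limits from counts reflect counting error alone, as no molecular identifiers separate PCR copies.

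The members and lists were chosen with earlier results of these data known. Genes named were the 7 members, Usp18, in each list the genes called, the 2 with the largest absolute log2 fold change and the 2 with the highest CPM, the 5 genes most correlated with Coro2a and with Coro1a, genes that overlap a member and the nearest tested neighbours of Coro2a. Other genes, such as Cyp11a1, Dtx4, Gabbr2, Hemgn, Svil and the markers, were named after their values were seen. Values of some genes that this rule would name are not reported here.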

Additional observations from a re-analysis of the deposited data

How the results depend on the processing

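With 3 libraries in each group, counts of calls depended on the method and on single libraries. Against 203 genes higher and 31 lower in edgeR, the DESeq2 Wald test called 713 and 231, limma-voom 48 and 6, edgeR without a low-count filter 372 and 61, and edgeR with a mean of at least 50 counts 120 and 17. With 1 library left out, between 8 and 2278 genes were higher and between 0 and 2024 lower, with 1373 to 5501 genes at an unadjusted p under 0.05. Of the actin and partner genes, DESeq2 called 7 higher and limma-voom 1, and leaving out 1 library gave 0 to 25 higher and 0 to 4 lower. The cause of these differences was not tested.

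Coro2a kept its direction in all 14 alternatives, with log2 differences from 3.17 with the replicate block to 3.76 without tamoxifen 4. Over the leave-one-out fits, Coro1a ran from 0.37 to 0.87, Coro1c from -0.36 to -0.20, Coro7 from -0.011 to 0.42 and Usp18 from 0.73 to 1.18. Coro7 reversed without tamoxifen 2 (-0.011), and Coro1a, Coro1c and Coro7 passed the threshold only without tamoxifen 4. Usp18 passed it with DESeq2 (0.9997, adjusted p = 0.00199), with edgeR and no low-count filter (0.99, adjusted p = 0.0395) and with edgeR without tamoxifen 4 (1.04, adjusted p = 0.00654). Replicate numbers 1 and 4 occur in both groups. The deviations of these libraries from their group means had correlations of -0.13 for number 1 and 0.06 for number 4. Values this few cannot show whether libraries of the same number belong together, and the labels do not say. A fit with the replicate as a block, on these 4 libraries with 1 residual degree of freedom, called 174 genes higher and 18 lower, of which 139 were shared with the 234 of the fit without it, and changed no coronin call. With the exon union as length, added after seeing the data, the share of Coro1a in oil was 54.1% and Coro7 and Coro2a came before Coro1c in tamoxifen. Coro2b, with at most 4.5 counts in a library, and Scin in oil, with at most 3, are limited by depth.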
